A study of Homo sapiens with 4 samples.

Results

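Transcripts of the caveolins and of their partner proteins at the plasma membrane were examined in 2 HER2-positive breast cancer cell lines and their lapatinib-resistant clones. The set held 8 genes of the 16419 that could be named on the array. These were the caveolins CAV1, CAV2 and CAV3, the cavins CAVIN1, CAVIN2 and CAVIN3 (formerly PTRF, SDPR and PRKCDBP), and the accessory proteins EHD2 and PACSIN2. A probe was taken when its RefSeq transcript accession belonged to one of these genes, which gave 15 of the 41000 probes, 1 for CAVIN2 and 2 for each other gene. No measured value entered the matching of probes to genes, but the 8 genes were chosen with earlier results of these data known.

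Total RNA of 4 cultures was hybridised to 4 Agilent whole-genome arrays with a single Cy3 channel, 1 array per culture. SkBr3 and BT474 are established human lines with amplified ERBB2, and the parental cells were labelled as vehicle-treated. SkBr3/Lap and BT474/Lap were each 1 clone selected with rising doses, up to 1 μM, of the EGFR and HER2 kinase inhibitor lapatinib, so that the drug, the resistance and the choice of 1 clone cannot be told apart. The labels number the SkBr3 clone 3 and the BT474 clone 6, the study's text uses the opposite numbers, and the clones are named here by their line alone.

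Caveolae are flask-shaped pits of the plasma membrane that are rich in cholesterol. Caveolins, hairpin proteins embedded in the inner leaflet, form the pit together with a coat of cavins, in which CAVIN1 is needed for the pit to form. EHD2, an ATPase at the neck, holds the pit at the surface, and PACSIN2, an F-BAR protein, helps to bend the membrane. CAV1 also binds Src-family kinases and growth factor receptors, and in breast tissue it is abundant in myoepithelial, fat and endothelial cells and low in luminal cells.

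CAV2 and CAV1 lie side by side on chromosome 7, and they were the members for which both clones exceeded their parents by at least 2-fold, so the DNA in front of each start is shown. RefSeq (GRCh38.p14) held a promoter window of 300 bases, 250 before and 50 after the outermost start, for 6 of the 8 members, and for CAVIN1 and CAVIN3 no window was used. The 250 bases before the start are chr7:116524759-116525008 for CAV1 and chr7:116499488-116499737 for CAV2, both on the plus strand, with 25271 bases between the starts. Capitals mark the GC box GGGCGG, a Sp1-type element searched on both strands.
CAV1: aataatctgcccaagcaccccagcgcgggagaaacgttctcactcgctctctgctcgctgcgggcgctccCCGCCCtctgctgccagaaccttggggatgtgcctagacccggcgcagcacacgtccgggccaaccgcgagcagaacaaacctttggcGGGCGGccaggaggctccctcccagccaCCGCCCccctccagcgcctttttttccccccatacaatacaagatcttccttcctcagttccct
CAV2: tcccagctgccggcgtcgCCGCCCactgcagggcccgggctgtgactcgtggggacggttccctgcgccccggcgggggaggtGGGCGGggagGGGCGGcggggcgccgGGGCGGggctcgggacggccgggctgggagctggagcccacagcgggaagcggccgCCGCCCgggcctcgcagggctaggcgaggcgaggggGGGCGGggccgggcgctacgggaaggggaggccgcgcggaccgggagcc
The CAV2 window held 6 GC boxes at a GC content of 82.7% and the CAV1 window 3 at 62.3%, against a median GC content of 58.3% over 27305 promoters, of which 44.5% held a GC box. Among the other members, PACSIN2 had 2 GC boxes, EHD2 had 1, and CAV3 and CAVIN2 had none. The NF-κB consensus, named since the study followed NF-κB, was matched once in the CAV1 window and once in that of PACSIN2, outside the GC boxes, and 10.8% of all promoters held it. The TEAD letters GGAATG, present in 14.1% of promoters, occurred in the CAVIN2 window only among the 6 members, and the AP-1 letters TGANTCA (7.72% of promoters) and the FOXO letters GTAAACA (3.44%) occurred in none of them. These matches are letters in a window and were not tied to binding.

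Signals are given below as the background-subtracted intensity that the scanner software calls the processed signal, on a linear scale. Arrays differed in brightness, with the 75th percentile between 1115 (SkBr3) and 2074 (SkBr3/Lap), so each fold change is a difference of log2 signals after that percentile was subtracted from each array. Between 66.59% and 74.02% of probes were well above background by the software's own test, and 0 spots were saturated. A probe that failed this test on an array is called dim there. Where 1 side of a pair was dim it was set to the lowest signal that passed on that array, between 13.3 and 16.01, or to its own signal if higher, which makes the fold a limit, written "at least". No fold is given where both sides were dim or the limit was under 1. Since 1 array stood for each culture, no difference could be set against a spread between replicates, and the order of levels given for each gene has no error attached. The SkBr3/Lap array lay on a slide of its own, so slide and resistance cannot be told apart in that line, whereas both BT474 arrays shared a slide. Lower RNA per cell and fewer expressing cells cannot be told apart either.

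CAV1 transcript was high in parental SkBr3, low in parental BT474 and high in both clones. The probe A_23_P134454, spotted 10 times, read 1482 in SkBr3 against 7879 in SkBr3/Lap and 37.3 in BT474 against 2725 in BT474/Lap. BT474 thus stood alone at the low end, and the clone derived from it reached the range of the SkBr3 arrays. CAV1 rose 2.86-fold from SkBr3 to its clone (log2 difference 1.51) and 50.3-fold from BT474 to its clone (5.65), where it ranked 18 among the 24599 probes with a measured change, counted from the largest rise. In the SkBr3 pair it ranked 1303 of 23945. With background corrected by the normexp model and quantile normalization, the BT474 change was 4.44 on the log2 scale.

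The 10 spots of this probe were also read singly, in unscaled signal. They ran from 1405 to 1529 in SkBr3 and from 7453 to 8225 in its clone, and from 27.7 to 51.3 in BT474 and from 2472 to 2827 in its clone, and all 10 were well above background on each array. Spots of one array show the precision of the scan and not of the culture. The other CAV1 probe, A_24_P12626, read 1169, 6763, 14.2 (dim) and 2014 in the same order of arrays. Its rise was 3.11-fold in SkBr3/Lap and at least 87.0-fold in BT474/Lap, so both probes put the arrays in the same order. With normexp and quantile normalization the BT474 value of this probe was 4.31 on the log2 scale.

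CAV2, which forms hetero-oligomers with CAV1 and depends on it to reach the surface, was higher in both clones as well. Probe A_23_P123071 read 242 in SkBr3 against 3208 in SkBr3/Lap and 95.3 in BT474 against 388 in BT474/Lap. The order of the scaled levels was that of CAV1, with SkBr3/Lap highest and BT474 lowest, and the larger change lay in the other line. The rise of CAV2 was 7.13-fold in SkBr3/Lap (log2 2.83, rank 386) and 2.81-fold in BT474/Lap (1.49, rank 982). The second probe, A_24_P925040, was well above background on the SkBr3/Lap array alone, at 53.8 against 4.96 in SkBr3, 5.11 in BT474 and 6.86 in BT474/Lap, which was at least 1.81-fold higher in SkBr3/Lap and gave no fold in BT474/Lap.

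CAV3, the caveolin of muscle, was faint. Probe A_24_P251599 read 68.4 in SkBr3 against 244 in SkBr3/Lap and 10.6 (dim) in BT474 against 84.2 in BT474/Lap. BT474 was again the lowest array. The SkBr3 clone was 1.91-fold and the BT474 clone at least 3.64-fold above its parent. The second CAV3 probe, A_24_P319989, was dim on all 4 arrays at 4.82, 4.01, 4.85 and 4.25, so the CAV3 signal rests on 1 probe. Whether that probe also reads the related CAV1 transcript was not tested.

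**Figure D1:**
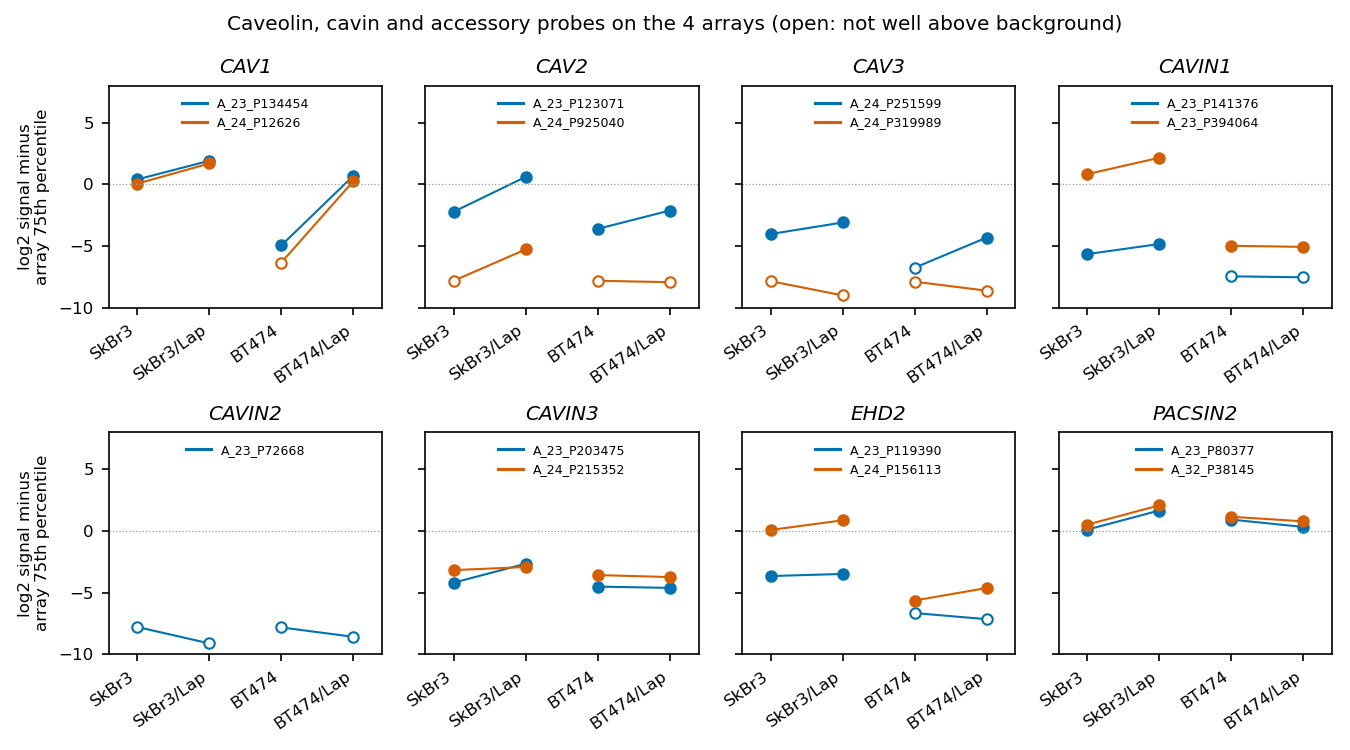
Level of each probe on each array, as log2 processed signal minus the 75th percentile of the array, with 1 panel per gene, 1 colour per probe, a line joining each clone to its parent and open points where the probe was not well above background. CAV1 lies between 0.07 and 1.93 on every array but BT474, and CAVIN1 and EHD2 lie far lower in both BT474 arrays than in both SkBr3 arrays for their brighter probes.

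Of the cavins, CAVIN1 and 1 probe of CAVIN3 were at least 2-fold higher in SkBr3/Lap, and none was in BT474/Lap. CAVIN1, the structural coat protein, read 1999 in SkBr3 against 9328 in SkBr3/Lap and 36.6 in BT474 against 49.99 in BT474/Lap with probe A_23_P394064. Both BT474 arrays were thus low while both SkBr3 arrays were high. CAVIN1 was 2.51-fold higher in SkBr3/Lap (log2 1.33, rank 1625), and in BT474/Lap it differed from its parent by -0.09 on the log2 scale, a sign that turned to 0.02 when the percentile was taken over probes well above background on all arrays. CAVIN1 was 151-fold higher in SkBr3/Lap than in BT474/Lap, whereas CAV1 differed 2.34-fold between the same arrays. The fainter CAVIN1 probe A_23_P141376 read 22.1 and 72.5 in the SkBr3 pair (1.76-fold) and was dim at 6.57 and 9.01 in the BT474 pair.

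CAVIN3, a cavin that binds protein kinase C delta, gave unequal changes with its probes. A_23_P203475 read 60.9 in SkBr3 against 330 in SkBr3/Lap and 50.5 in BT474 against 68.1 in BT474/Lap, which was 2.91-fold higher in SkBr3/Lap and -0.10 on the log2 scale in BT474/Lap. That sign too turned, to 0.0049, with the percentile over probes well above background. A_24_P215352 read 123, 273, 96.6 and 125, with 1.19-fold in SkBr3/Lap and -0.16 on the log2 scale in BT474/Lap. The SkBr3/Lap array was the highest for both probes, and only the first reached 2-fold. CAVIN2, which helps to shape the pits, had 1 probe that was dim on every array, at 4.99, 3.69, 5.07 and 4.33.

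EHD2 followed the line of origin. Probe A_24_P156113 read 1180 in SkBr3 against 3779 in SkBr3/Lap and 23.1 in BT474 against 67.6 in BT474/Lap. Both SkBr3 arrays lay far above both BT474 arrays. The clones were 1.72-fold (SkBr3/Lap) and 2.02-fold (BT474/Lap) above their parents, and the latter value was 1.01 on the log2 scale and fell to between 0.23 and 0.83 with scaling on the median, quantile normalization, normexp, or 16 added before the log2. The other EHD2 probe, A_23_P119390, read 88.0 and 184 in the SkBr3 pair (1.13-fold) and was dim at 11.4 and 11.7 in the BT474 pair.

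PACSIN2 was well above background on every array with both probes, which read 1203 and 1598 in SkBr3 against 6560 and 8758 in SkBr3/Lap, and 2198 and 2577 in BT474 against 2109 and 2892 in BT474/Lap. SkBr3/Lap was the highest array and SkBr3 the lowest. The rise in SkBr3/Lap was 2.93-fold with A_23_P80377 and 2.95-fold with A_32_P38145, and the BT474/Lap differences were -0.60 and -0.37 on the log2 scale. Both BT474 values were negative with each scaling tried.

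Counted over the set, 11 of the 15 probes (7 genes, without CAVIN2) reached a signal of 100 on at least 1 array, the lower limit the study used, and 3 of them did so through the SkBr3/Lap array alone. These were the CAV3 probe, the first CAVIN3 probe and the dimmer EHD2 probe, and a probe that passes through 1 array is bound to be high there. In SkBr3/Lap, 7 of the 15 probes, for 5 genes (CAV1, CAV2, CAVIN1, CAVIN3 and PACSIN2), were at least 2-fold higher and 0 lower, and 2 gave no fold. Of all 25927 probes that passed the limit, 12.3% were at least 2-fold higher in that pair and 14.1% lower. In BT474/Lap, 5 of the 15 probes, for 4 genes (CAV1, CAV2, CAV3 and EHD2), were at least 2-fold higher and 0 lower. Another 5 gave no fold. The shares over all probes past the limit were 9.68% higher and 4.88% lower. Only the 11 member probes past the limit could count as higher or lower. CAV1 and CAV2 were thus the members that passed 2-fold in both clones. On the SkBr3/Lap array the basal and myoepithelial markers were raised as well (unscaled summed signal 26836, against 1150 in SkBr3). Their part in these counts was not tested.

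The median log2 difference over all 15 probes, with dim signals as measured, was 1.33 in SkBr3/Lap and -0.10 in BT474/Lap, against -0.31 and -0.14 over all 41000 probes, likewise without the signal limit. The balance of rises and falls over the probes past the limit moved with the scaling. Rises were 46.58% of all 2-fold changes in SkBr3/Lap and 66.49% of those in BT474/Lap. With scaling on the median of each array they were 56.71% and 47.28%, with medians over the probes past the limit of 0.05 and -0.26 on the log2 scale, instead of -0.10 and -0.05. With the percentile over probes well above background, the share in BT474/Lap was 74.5%. At a threshold of 3-fold, 2 member probes (CAV2 and the second CAV1 probe) stayed above it in SkBr3/Lap, and 3 (CAV1 with both probes and CAV3) in BT474/Lap.

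**Figure D2:**
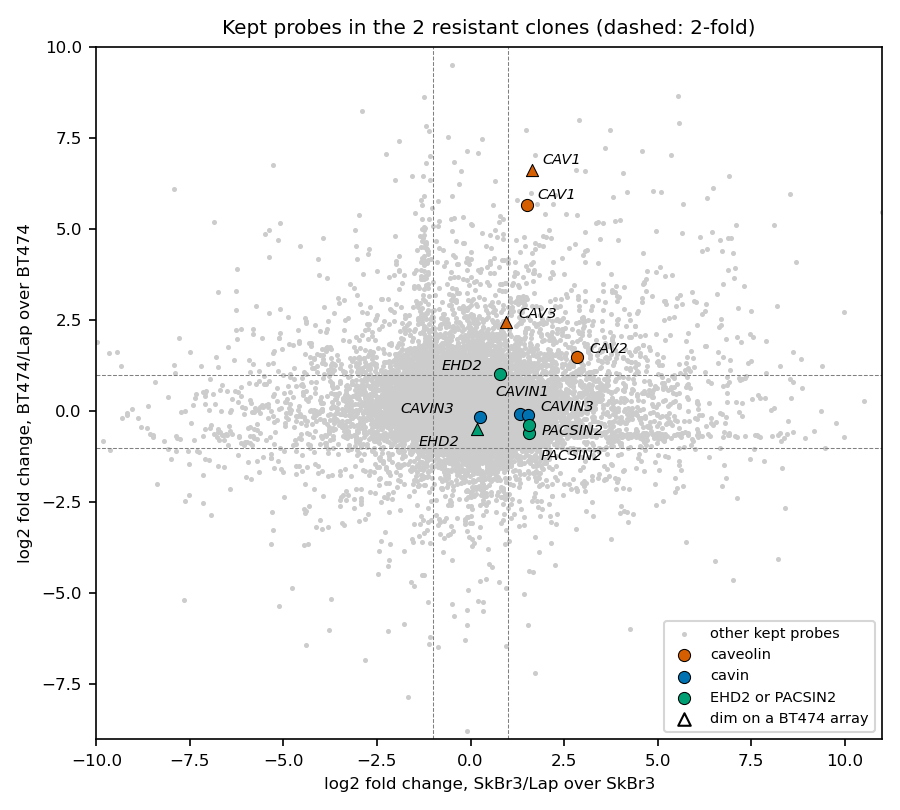
Change of each probe that passed the signal limit in SkBr3/Lap (horizontal) and in BT474/Lap (vertical), as log2 fold change against the parent, with other probes in grey, members in colour, dashed lines at 2-fold and triangles where a BT474 array was dim and the value is as measured. CAV1 and CAV2 lie beyond 2-fold on both axes, while CAVIN1, PACSIN2 and 1 CAVIN3 probe lie beyond it in SkBr3/Lap only.

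The parental lines themselves were far apart in these genes. In SkBr3, 7 of the 15 probes, for 5 genes (CAV1, CAV2, CAV3, CAVIN1 and EHD2), were at least 2-fold higher than in BT474. Of the others, 0 were lower and 3 gave no fold, whereas 19% of all probes past the signal limit were higher and 18.8% lower. CAV1 was 41.3-fold higher in SkBr3 with the probe of 10 spots (rank 83 of 23476) and at least 76.1-fold with the other. CAVIN1 was 56.7-fold higher (rank 60) and EHD2 53.1-fold higher (rank 64). Read by their brighter probes, these 3 genes were the farthest apart of the set. CAV2 was 2.64-fold higher and CAV3 at least 4.46-fold, while CAVIN3 was 1.25-fold and 1.32-fold higher with its probes and PACSIN2 differed by -0.81 and -0.63 on the log2 scale, with the higher level in BT474. CAV1 of BT474/Lap came to 1.22-fold above that of parental SkBr3, and no array pair allows a statement on whether these levels differ. With normexp and quantile normalization, the parental differences were 4.09 for CAV1 with its first probe, 4.60 for CAVIN1 and 4.14 for EHD2 on the log2 scale.

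A single test across the lines was possible, in which the lines stood in for replicates. limma was fitted to all 25927 probes with resistance as the effect and the line as a block, which left 1 residual degree of freedom. After Benjamini-Hochberg adjustment 0 probes passed 0.05 (0% of those tested), and at an unadjusted p below 0.05 there were 900, or 3.47%. The adjusted p of every member probe was 1. The mean log2 difference of CAV2 was 2.16 with a standard error of 0.55, that of the CAV1 probes 3.58 with 1.18 and 4.12 with 1.40, that of CAV3 1.69 with 0.58 and that of the brighter EHD2 probe 0.90 with 0.42. The other 6 probes lay between -0.16 and 0.72. The CAV2 probe and both CAV1 probes, 3 of the 11 member probes tested, were among those below 0.05 without adjustment. With the slide as the block, or with no block, 0 member probes lay below 0.05 without adjustment.

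Genes with a profile like that of CAV1 were sought by the distance between log2 levels over the 4 arrays, each centred on its mean, among 11991 other genes whose median distance was 5.80. The nearest was SCIN, the actin-severing protein scinderin, at 0.41. SCIN read 3788 in SkBr3 against 21674 in SkBr3/Lap and 53.8 in BT474 against 4955 in BT474/Lap, so that BT474 was again the one low array, and it was 3.08-fold and 63.5-fold higher in the clones. DIO1, a deiodinase that activates thyroid hormone, followed at 1.06 with 1.74-fold and 40.8-fold.

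A probe of ANXA2, annexin A2, came next at 1.08, with 7.19-fold in SkBr3/Lap and at least 17.8-fold in BT474/Lap. The 2 brighter ANXA2 probes lay at 5.92 and 6.07 and differed by 0.01 and -0.28 on the log2 scale in BT474/Lap, so the likeness rests on the faint probe A_32_P148345. PPARA, a fatty-acid-sensing nuclear receptor, came at 1.13 with 3.58-fold and at least 4.86-fold. PAPSS2, which makes the sulfate donor of the cell, came at 1.27 with 1.82-fold and 39.1-fold. Each of these genes was placed by its nearest probe, and their other probes were less like CAV1. The brighter PPARA probe A_24_P570049 lay at 2.02. The PPARA probe A_23_P211643 was dim on both BT474 arrays (4.48 and 4.13) and gave no fold there. The brighter PAPSS2 probe A_24_P940166 lay at 2.68. Of the members, CAV3 was 66th in this order at a distance of 3.11 and CAV2 166th at 3.74, with EHD2 at 362 and CAVIN1 at 2719. The order rests on 4 arrays, and no p was given to it.

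The genes on either side of CAV2 and CAV1 were read in RefSeq order, with 4 matched genes on each side. On the near side of CAV2, MDFIC, an inhibitor of MyoD-family factors, rose 5.36-fold in SkBr3/Lap and 2.78-fold in BT474/Lap with its brighter probe. TES, a LIM-domain protein of focal adhesions, was 2.23-fold higher in SkBr3/Lap and -0.74 on the log2 scale in BT474/Lap, and TFEC was dim on all arrays. FOXP2 was dim in the SkBr3 pair and 7.05-fold higher in BT474/Lap.

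On the far side of CAV1, the receptor kinase gene MET read 2295 in SkBr3 against 24192 in SkBr3/Lap and 2351 in BT474 against 2956 in BT474/Lap with its brightest probe. SkBr3/Lap stood alone above the other arrays, by 5.67-fold over SkBr3, and the 3 MET probes lay between -0.86 and -0.21 on the log2 scale in BT474/Lap. CAPZA2, an actin-capping subunit, lay at -0.46 and -0.31 on the log2 scale in the clones, ST7 at -0.43 and -0.79, and ST7-AS1 at -2.35 and 0.15. ST7 and ST7-AS1 overlap on opposite strands. In BT474/Lap the rise of CAV1 was therefore not shared by MET or CAPZA2, whose values were below 0 there with the brightest probe. TES and ST7 were below 0 there too, and ST7-AS1 lay at 0.15. FOXP2 (7.05-fold), CAV2 (2.81-fold) and MDFIC (2.78-fold) were higher in BT474/Lap, as CAV1 was.

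**Figure D3:**
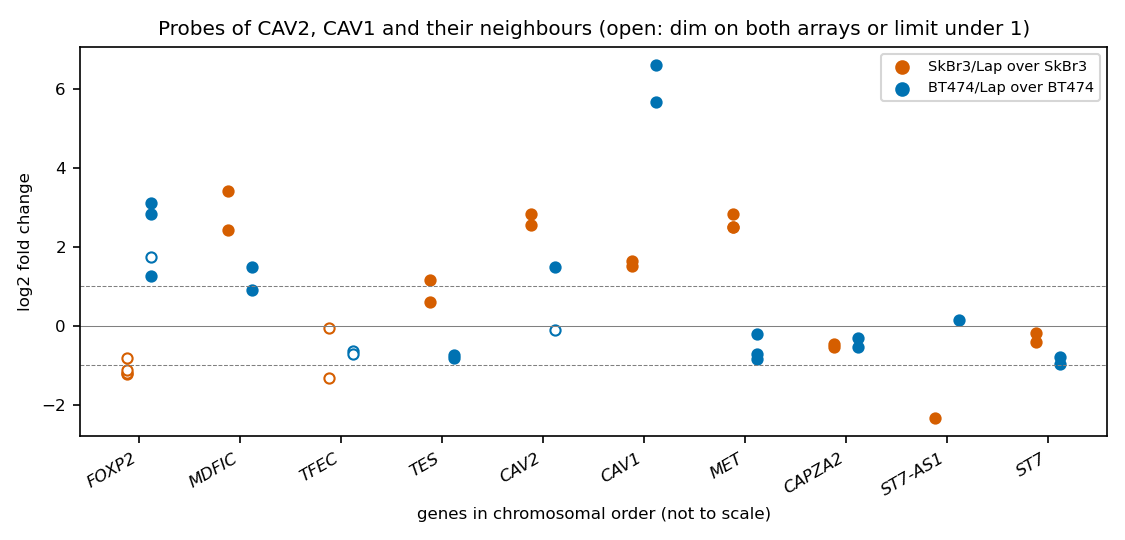
Log2 fold change of every probe of CAV2, CAV1 and 4 matched genes on either side, in chromosomal order and not to scale, for SkBr3/Lap (orange) and BT474/Lap (blue), with dashed lines at 2-fold and open points where no fold was given. The CAV1 probes are the highest blue points, at 5.65 and 6.61 with the dim signal as measured, and MET is raised in orange alone.

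Relatives of the members mostly changed by less than 2-fold. The list of caveolar and raft relatives had 9 genes, of which 8 had a probe and 7 passed the signal limit, and 1 was at least 2-fold higher and 0 lower in each clone. Over all 12156 genes, each read by its brightest probe, 13.5% were higher and 13% lower in SkBr3/Lap, and 8.6% higher and 5.14% lower in BT474/Lap. The gene that passed in SkBr3/Lap was PACSIN3 (2.24-fold) and in BT474/Lap PACSIN1 (2.83-fold), the paralogs of PACSIN2. EHD1, EHD4, the raft scaffolds FLOT1 and FLOT2, and STOM changed by less than 2-fold in both clones. The medians were 0.09 and 0.10 on the log2 scale, against -0.06 and -0.09 over all genes. CAVIN4, the muscle cavin, had no matched probe.

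Of 14 signalling partners of caveolin, 13 passed the limit. In SkBr3/Lap 4 were higher and 2 lower, against 13.5% and 13% over all genes. In BT474/Lap 3 were higher and 2 lower, against 8.6% and 5.14%. FYN, one of the Src-family kinases that phosphorylate caveolin, read 106 in SkBr3 against 2496 in SkBr3/Lap and 187 in BT474 against 940 in BT474/Lap. FYN was thus higher in both clones, by 12.7-fold and 3.46-fold. The other kinases of the list that act on caveolin lay below 0 in both clones by their brightest probe, with SRC at -0.99 and -0.39, YES1 at -0.79 and -0.07 and ABL1 at -0.92 and -0.64 on the log2 scale, and none of these values reached 2-fold. The fainter ABL1 probes lay between -0.17 and 0.13 in BT474/Lap. In SkBr3/Lap the probe A_24_P282416 lay at -0.66, and the other fainter ones were dim in SkBr3 and gave no fold. INSR, the insulin receptor, was also higher in both (2.94-fold and 2.80-fold), and FLNA, the actin crosslinker that anchors caveolae, in SkBr3/Lap only (4.94-fold, against 1.03-fold). EGFR read 2767, 12836, 217 and 124, which was 1.32 and -1.34 on the log2 scale. ERBB2 lay at -1.90 in SkBr3/Lap and -0.65 in BT474/Lap by its brighter probe, and at -2.02 and -0.26 by the other. Both BT474/Lap values were under 2-fold, and the ACTB probes lay between -0.86 and -0.57 in that pair. NOS3, the endothelial nitric oxide synthase that CAV1 binds, was -1.77 and 1.38, and the lipoprotein receptor gene SCARB1 was -0.13 and -1.75 on the same scale, with its other probes at 0.78 and 0.62 in SkBr3/Lap. The list medians were -0.35 and -0.07.

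The clathrin pathway, the other main route of endocytosis, had 20 genes with 19 past the limit. Of these, 4 were higher and 2 lower in SkBr3/Lap, against 13.5% and 13% over all genes. In BT474/Lap 2 were higher and 0 lower, against 8.6% and 5.14%. DAB2, a clathrin adaptor, was higher in both clones (4.50-fold and 5.60-fold). BIN1 (5.87-fold), SNX9 (2.59-fold) and the adaptor subunit AP2B1 (2.06-fold) were higher in SkBr3/Lap, where FCHO2 (-1.12) and SYNJ1 (-1.23 on the log2 scale) were lower, and DNM1 was 2.30-fold higher in BT474/Lap. The second AP2B1 probe differed from the one counted, at -0.32 in SkBr3/Lap and 1.16 in BT474/Lap on the log2 scale against 1.05 and -0.78, and the second SYNJ1 probe was at -0.71 in SkBr3/Lap. The medians were 0.06 and 0.15 on the log2 scale.

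Targets of the mechanosensitive coactivators YAP and TAZ, a program linked to membrane tension and caveolae, were listed with 22 genes, 18 of them past the limit. In SkBr3/Lap 10 were higher and 1 lower with a median of 1.03 on the log2 scale. In BT474/Lap 6 were higher and 0 lower with a median of 0.42, or 0.60 over the genes that gave a fold, limits included. Over all genes 13.5% were higher and 13% lower in SkBr3/Lap, and 8.6% higher and 5.14% lower in BT474/Lap. CCDC80, counted as higher in SkBr3/Lap, passed the limit through that array alone, so its higher level there was fixed by the limit. NUAK2 (19.2-fold), the ecto-nucleotidase NT5E (9.62-fold) and CRIM1 (8.06-fold) led in SkBr3/Lap, and IGFBP3 (27.8-fold) led in BT474/Lap. CRIM1 (4.90-fold), IGFBP3 (2.70-fold in SkBr3/Lap) and DOCK5 (2.07-fold and 4.39-fold) passed in both clones, while a second DOCK5 probe was at 0.60 in SkBr3/Lap on the log2 scale. The target CCN1 was 1.45 in SkBr3/Lap and -0.52 in BT474/Lap on the log2 scale, and F3, tissue factor, was -1.98 and 1.58. CCN2 was -0.60 in SkBr3/Lap and gave no fold in BT474/Lap, and AMOTL2 was -0.03 and -0.62. ANKRD1 was dim on both SkBr3 arrays and gave no fold in BT474/Lap.

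**Figure D4:**
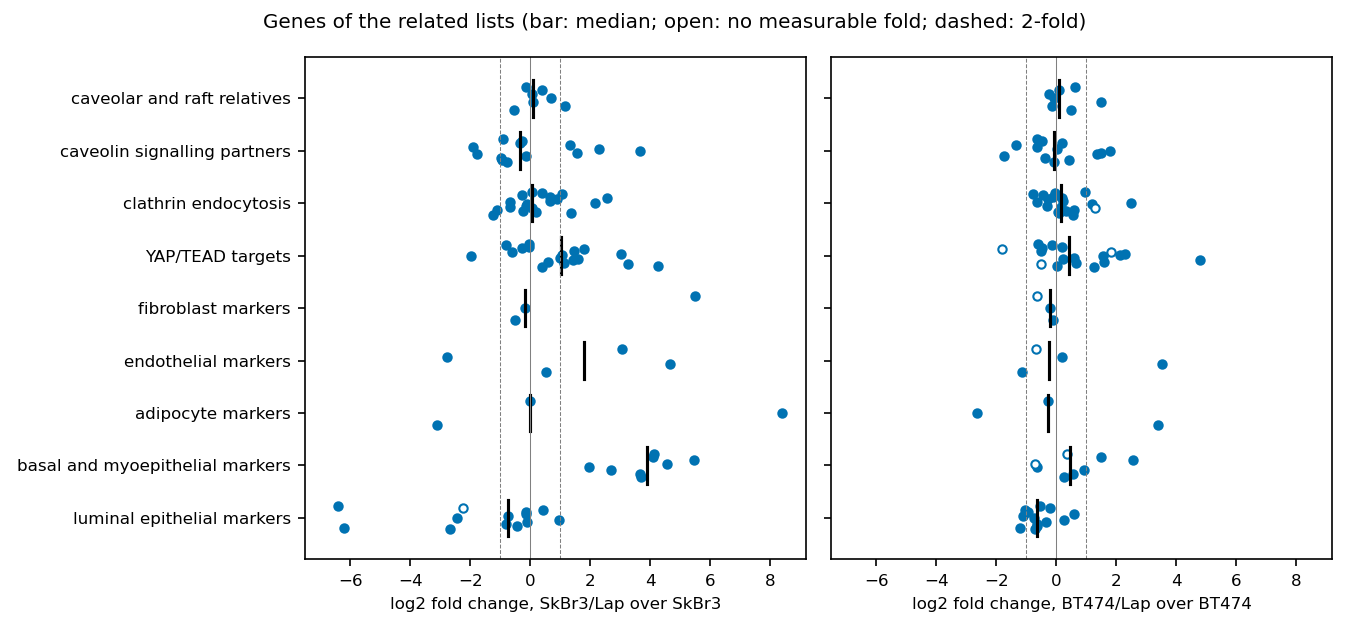
Log2 fold change of each gene of the related lists and of the cell type marker lists in SkBr3/Lap (left) and BT474/Lap (right), read by the brightest probe, with a bar at the median, dashed lines at 2-fold and open points where no fold was given. The basal and myoepithelial markers lie right of 2-fold in SkBr3/Lap with a median of 3.89, and their median in BT474/Lap is 0.47.

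Markers of cell types rich in caveolae were read beside these results. The basal and myoepithelial list moved with SkBr3/Lap, where 8 of the 8 genes past the limit (9 listed) were at least 2-fold higher. In BT474/Lap 2 of 8 were, and the shares over all genes were 13.5% in SkBr3/Lap and 8.6% in BT474/Lap. KRT5 and KRT17 passed the limit through the SkBr3/Lap array alone, so that their higher level there was fixed by the limit. KRT17 (43.7-fold and at least 3.93-fold) and KRT14 (17.0-fold and 2.83-fold) were higher in both clones, and ACTA2 (17.3-fold) and KRT5 (at least 14.3-fold) in SkBr3/Lap. The fainter KRT14 probe was 1.82-fold and 1.08-fold higher, under 2-fold in both clones, and the call of KRT14 rests on the brighter one. Between 5 and 9 of the 9 were well above background on an array. The summed signal of the list was 1150 and 26836 in the SkBr3 pair and 1808 and 3455 in the BT474 pair. Summed signals here and below are unscaled, and the 75th percentile of the arrays was 1115 and 2074, and 1158 and 1681, in the same order. The list medians were 3.89 and 0.47 on the log2 scale, or 3.77 and 0.75 over the genes that gave a fold, limits included. The part of this list in the caveolin and cavin values was not tested.

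Markers of other caveola-rich cells were mostly faint. Of 10 fibroblast markers with a probe, between 2 and 5 were well above background on an array, DCN and LUM were dim on all 4 arrays, and the summed signal lay between 1417 and 2786. In SkBr3/Lap COL3A1 was at least 11.7-fold higher with its brightest probe and PDGFRB, which stayed below the signal limit, at least 2.18-fold higher, and no fibroblast marker was 2-fold higher in BT474/Lap. Of 9 endothelial markers, KDR and TIE1 were dim on all arrays, CDH5 was 8.43-fold higher in SkBr3/Lap, PECAM1 was at least 5.38-fold and at least 2.38-fold higher in the clones, and ESAM fell by 2.77 on the log2 scale in SkBr3/Lap, with VWF 2.18-fold lower in BT474/Lap by its brighter probe. The other VWF probe, below the limit, had the opposite sign in each clone. Between 3 and 7 of them were well above background on an array, with summed signals between 902 and 1676. Of 6 adipocyte markers, ADIPOQ and FABP4 were dim on all arrays, while the lipase LPL was at least 68.9-fold higher in SkBr3/Lap and lower by at least 4.29-fold in BT474/Lap. The lipid droplet gene PLIN1 was at least 5.76-fold lower in the SkBr3 clone and 10.5-fold higher in that of BT474, and 2 or 3 of the 6 were well above background on an array, with summed signals between 275 and 2477. COL3A1, PECAM1, CDH5 and LPL passed the signal limit through the SkBr3/Lap array alone and PLIN1 through the BT474/Lap array alone. The part of these genes was not tested.

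Luminal epithelial markers were read beside the label of both lines as breast cancer cells. They mark epithelium in general, and no marker here is particular to breast cancer. By their brightest probes, the keratins KRT8, KRT18 and KRT19 read at least 105289 on every array. The fainter KRT8 probe read between 2644 and 9877, and another KRT18 probe read 78836 in BT474/Lap. CDH1 was dim on both SkBr3 arrays and at least 44710 on both BT474 arrays. Of 13 luminal markers, 4 were at least 2-fold lower and 0 higher in SkBr3/Lap, against 13% and 13.5% over all genes. They were AGR2 (-6.42), SPDEF (-6.23), XBP1 (-2.67) and FOXA1 (-2.43 on the log2 scale). In BT474/Lap 3 were lower, against 5.14% over all genes, namely SPDEF at -1.19, the splicing factor ESRP1 at -1.12 and the claudin CLDN7 at -1.04. The luminal medians were -0.76 and -0.65 on the log2 scale, against -0.06 and -0.09 over all genes. Of the reference genes, GAPDH lay at -0.43 in SkBr3/Lap and -0.02 in BT474/Lap on the log2 scale. The 4 ACTB probes lay between -0.51 and 0.53 in SkBr3/Lap and between -0.86 and -0.57 in BT474/Lap. The luminal median of BT474/Lap lay within that ACTB range.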

How the data were processed

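For each spot the authors deposited Agilent Feature Extraction output, of which the detrended intensity with background removed (the processed signal) was used. The file headers name version 10.1.1.1 and 1 channel, while the methods name another version and LOWESS normalization. A deposited table of log2 values, whose differences between arrays matched those of the processed signals after centring per probe and a shift per array, served as an alternative. The log2 signals of a probe's spots were averaged, and from each array its own 75th percentile (over 41000 probes, controls left out) was taken away. A probe counted as well above background where the flag was set for 50% or more of its spots. Probes with a signal of at least 100 on at least 1 array were kept (25927, or 63.24%), and a gene was read by the kept probe whose mean log2 signal was highest. In the order of likeness to CAV1, the genes named as nearest were placed by their nearest probe instead. RefSeq accessions named 23675 probes.

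Each clone was compared with its own parent by the 2-fold criterion. limma 3.58.1 in R 4.3.3 was fitted across the lines and was tested on simulated data. The alternatives were scaling on the median or on probes well above background, quantile normalization, normexp (offset 50, on median pixel intensities) with quantile normalization, the log2 table, 16 added before the log2, no signal limit, only probes well above background on all arrays, outlier or dim spots left out, a 3-fold threshold, dim signals as measured, a mean over all kept probes per gene, and limma with the slide or with no block. The members, the lists and the rule for genes to name were chosen with earlier results of these data known. The rule took all members, the 5 genes nearest to CAV1 in profile, 4 genes on either side of CAV1 and CAV2, of each list up to 4 genes with the largest change and any at least 2-fold changed in both clones, and ERBB2, EGFR, GAPDH and ACTB as checks. Other genes named, such as CCN1, KRT8, EHD1 and markers that were dim on all arrays, were picked after their values were seen. The precision is limited by the number of arrays. Python 3.11.15, numpy 2.4.6 and pandas 2.3.3 served for the rest.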

Additional observations from a re-analysis of the deposited data

Results flagged for a closer look

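4 probes of 3 genes were at least 2-fold higher in SkBr3/Lap and below 0 in BT474/Lap, so that the clones differed in sign. These differences were not tested because each clone had 1 array. The CAVIN1 probe A_23_P394064 was 1.33 in SkBr3/Lap and -0.09 in BT474/Lap on the log2 scale. The CAVIN3 probe A_23_P203475 was 1.54 and -0.10, and it passed the signal limit through the SkBr3/Lap array alone. Its high level on that array was therefore fixed by the limit. For CAVIN1 and CAVIN3 the BT474/Lap value was near 0, and its sign turned with 1 of the scalings. The PACSIN2 probes were 1.55 and -0.60 (A_23_P80377) and 1.56 and -0.37 (A_32_P38145) on the same scale, and they kept both signs under every scaling tried. The SkBr3/Lap array was also the only one on its slide, and the part of the slide in these differences was not tested.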

How the results depend on the processing

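In all, 563 values were recomputed with other settings. Of 307 values for single member probes, 299 stayed on the same side of 2-fold, and the other 8 belonged to CAV2 (second probe), CAV3 and EHD2. The sign turned for 2 values under 2-fold, CAVIN1 and CAVIN3 in BT474/Lap. At a 3-fold threshold, 2 member probes instead of 7 were higher in SkBr3/Lap and 3 instead of 5 in BT474/Lap. In BT474/Lap the number was also 3 with normexp and quantile normalization and 3 with only probes well above background on all 4 arrays, where fewer probes were tested. CAV3 in SkBr3/Lap passed 2-fold with median scaling (1.09) and quantile normalization (1.06), and CAV3 in BT474/Lap did not with normexp (0.73). Of 198 list medians, 9 turned their sign, and 8 of these were medians under 2-fold. The other was the endothelial median in SkBr3/Lap, which went from 1.80 to -1.12 on the log2 scale when only the 2 genes well above background on all arrays were left. The median of the YAP and TAZ targets in SkBr3/Lap went below 2-fold in some settings, at 0.80 to 0.99. The limma fit pairs each clone with its parent through the line as a block. Without that block, and with the slide as the block, limma gave 0 member probes an adjusted p below 0.05, as in the other 8 settings, with a lowest adjusted p of 0.694 among members and with 0 to 4 of them below 0.05 unadjusted.

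The limits are those of 4 arrays. No error between cultures was available, each clone stood for its line, and drug exposure, clone and resistance cannot be told apart. For dim probes the fold depends on the lowest signal taken as measurable, and for CAV2, CAV3, CAVIN1, CAVIN3 and EHD2 the probes of a gene differed in brightness.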
